A study of Mus musculus with 8 samples.

Results

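The MHC class II genes are 10 of the 24787 genes counted in these tumors and are listed by name, with no threshold on their values: Cd74, H2-Aa, H2-Ab1, H2-Eb1, H2-DMa, H2-DMb1, H2-DMb2, H2-Oa, H2-Ob, and Ciita. All 10 were found among the genes counted. Their unique molecular identifiers (UMIs, 1 per captured transcript) were followed gene by gene across myeloid cell classes and tumor cells. The cells came from subcutaneous tumors of MC38, a mouse colon carcinoma line, grown in C57BL/6 mice and profiled on Seq-Well arrays 24 h after treatment. Mice had received saline (n = 3 tumors), free R848 (n = 3), or medium R848-BPD (n = 2). R848 (resiquimod) is a small-molecule agonist of TLR7 and TLR8, and the BPD is a bottlebrush-shaped polymer prodrug that carries R848 on a linker, here the linker with the medium release rate. CD45+ cells were loaded in excess of CD45- cells, so the numbers of cells per class reflect that sorting as well as the tumor. None of the 8 samples received an empty carrier, and each replicate was a different tumor.

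MHC class II molecules present peptides from the endosomal pathway to CD4 T cells. Dendritic cells carry the most, monocytes and macrophages carry amounts that depend on their state, and most tumor cells carry little unless they meet interferon-gamma. The genes share a conserved promoter module of X and Y boxes, bound by RFX, CREB, and NF-Y proteins, on which the coactivator CIITA assembles. Whether the level of Ciita sets theirs in these cells was not tested.

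On mm10 (GRCm38, GENCODE M21), 8 of the 10 genes lie in 1 stretch of chromosome 17 between positions 34092340 and 34316674, and Ciita lies on chromosome 16 (10480059 to 10528418). Cd74 lies on another chromosome. Promoter windows from RefSeq (GRCm38.p6, 250 bases before to 50 bases after the start of a gene) were at hand for 7 of the 10 genes, and not for Cd74, H2-Ab1, and Ciita. In the 250 bases before the start, the Y-box letters TGATTGG (either strand) stood in 6 of those 7 genes, against 7.23% of all 32851 windows, and the X-box letters AACNGATG (either strand) in 3 of the 7, against 1.98%. Neither pattern was found in the windows of H2-DMa. The letters were chosen with these sequences in view, and the matches are a description. The stretches from 140 to 21 bases before the RefSeq start are shown for the 6 genes with a match, since CIITA acts through this module, with the matches in capitals.
H2-Aa (I-A alpha chain, chr17:34287844-34287963, minus strand): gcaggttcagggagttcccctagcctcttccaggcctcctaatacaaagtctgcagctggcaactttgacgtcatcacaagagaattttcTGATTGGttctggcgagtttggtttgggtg
H2-Eb1 (I-E beta chain, chr17:34305727-34305846, plus strand): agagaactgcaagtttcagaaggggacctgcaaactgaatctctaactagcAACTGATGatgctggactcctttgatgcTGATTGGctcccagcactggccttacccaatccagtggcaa
H2-DMb1 (peptide loading, chr17:34153051-34153170, plus strand): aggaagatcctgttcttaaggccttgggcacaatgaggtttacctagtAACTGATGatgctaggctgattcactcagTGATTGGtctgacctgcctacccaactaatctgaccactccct
H2-DMb2 (peptide loading, chr17:34145109-34145228, plus strand): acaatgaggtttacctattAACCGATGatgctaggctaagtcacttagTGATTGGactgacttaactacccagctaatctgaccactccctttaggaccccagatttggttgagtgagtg
H2-Oa (inhibitor of loading, chr17:34092239-34092358, plus strand): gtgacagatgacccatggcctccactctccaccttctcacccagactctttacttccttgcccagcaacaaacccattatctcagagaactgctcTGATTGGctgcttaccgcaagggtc
H2-Ob (inhibitor of loading, chr17:34238765-34238884, plus strand): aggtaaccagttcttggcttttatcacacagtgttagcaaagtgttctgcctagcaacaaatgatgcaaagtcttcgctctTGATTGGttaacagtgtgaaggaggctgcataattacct

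The 8 libraries held 5867590 to 12422614 UMIs each, and 9886 of 10791 barcodes passed the filters. The median mitochondrial share of kept cells was 3.21% and 3.24% in medium R848-BPD tumors 1 and 2 and 3.62% to 5.44% in the other libraries. The part of this difference in the results was not tested. Cells were assigned to classes by marker genes that include no MHC class II gene, which gave 3737 macrophage-like, 517 monocyte-like, 263 mature dendritic cell (DC)-like, 106 Cd209a+ DC-like, 62 cDC1-like, 1595 MC38-like, 790 NK-like, and 418 T-like cells. Macrophage-like cells had a median of 199 macrophage-marker UMIs per 10000 and a median of 0 for the MC38 list, and MC38-like cells had medians of 24.9 for their own list and 0.775 for the macrophage list. Monocyte-like, mature DC-like, and cDC1-like cells were also led by their own lists (medians of 64.7, 117, and 44.0 per 10000). The markers went against the label of the Cd209a+ DC-like cells, which had a median of 28.5 monocyte-marker UMIs per 10000 against 13.2 of their own list, with 64 of the 106 cells near the cut of the gate, so the name stands for the gate alone. The monocyte list was also found in macrophage-like (7.83), cDC1-like (12.7), NK-like (15.96), and T-like cells (19.0). Saline tumor 2 stood apart, with 842 macrophage-like cells against 376 and 423 in the other saline tumors and the highest level of 8 of the 10 genes in that class, so results that change without it are given both ways. Of the barcode sequences, 23 occurred in more than 1 library, covering 59 kept cells. Levels are given as CPM (a gene's UMIs scaled to the summed UMIs of its class in a tumor), and a tumor entered a class with 10 or more cells unless stated. They count transcripts at their 3' ends and are not scaled by gene length, so 1 gene is compared between classes and treatments, not with another gene.

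In saline tumors the class II chain genes followed 1 order of classes. H2-Ab1, the beta chain of the I-A molecule, was at 18694 and 18985 CPM in cDC1-like cells (2 tumors with enough cells), at 13068 and 16958 CPM in Cd209a+ DC-like cells, and at 8186 and 9271 CPM in mature DC-like cells. Monocyte-like cells followed at 3627 to 4446 CPM (3 tumors), and macrophage-like cells at 1131 to 6468 CPM with a median of 1482. Only saline tumor 2 made the macrophage range reach the monocyte range. Far lower were T-like cells (241 to 1107 CPM), MC38-like cells (118 to 321 CPM), and NK-like cells (99.3 to 267 CPM), whose ranges overlapped in that order, while T-like and macrophage-like cells did not overlap. The same first 5 places held for H2-Eb1, the beta chain of I-E, for H2-Aa, the alpha chain of I-A, and for Cd74, the invariant chain that guards the peptide groove. C57BL/6 mice do not make the alpha partner of H2-Eb1 and carry no I-E at the surface, so H2-Eb1 values are levels of a transcript only. In each of these 3 genes the ranges of monocyte-like and macrophage-like cells overlapped, and those of cDC1-like, Cd209a+ DC-like, and mature DC-like cells did not.

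**Figure D1:**
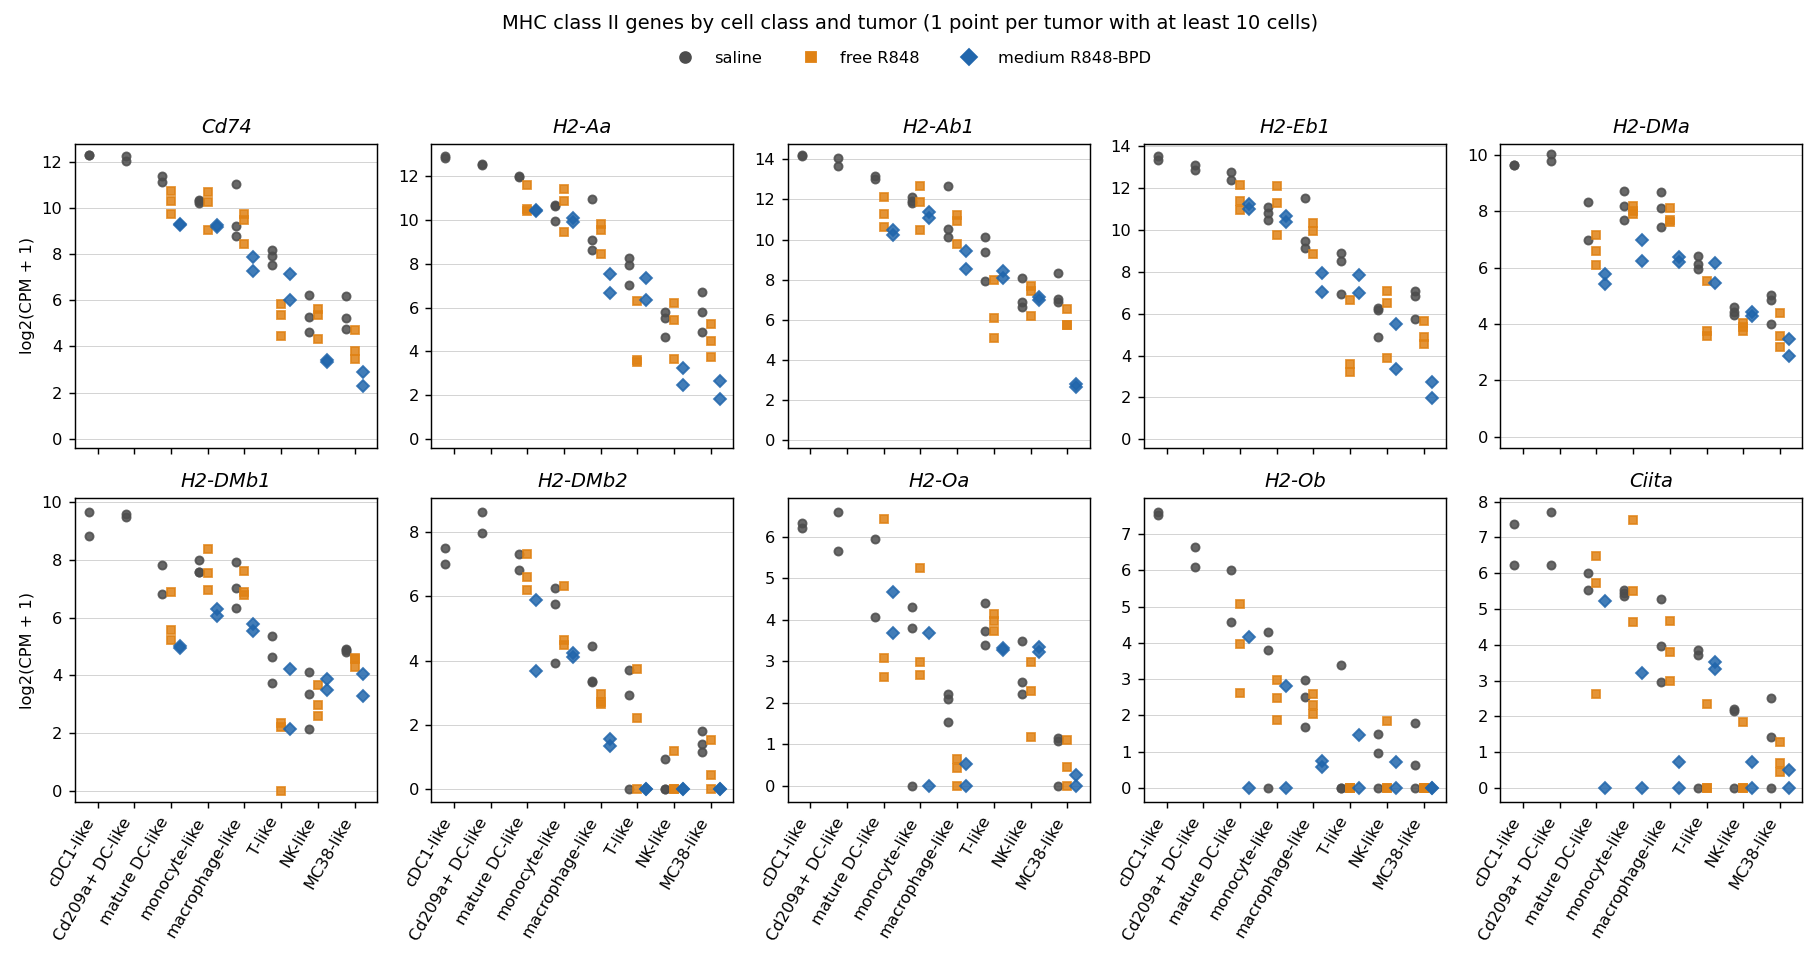
Level of each MHC class II gene as log2(CPM + 1) on the vertical axis for 8 cell classes, with 1 point for each tumor of 10 or more such cells and the treatment given by color and shape. H2-Ab1 falls from 18694 to 18985 CPM in cDC1-like cells of saline tumors to 118 to 321 CPM in MC38-like cells, and in macrophage-like cells the medium R848-BPD points lie below both other groups for the 9 genes tested, as they do for 11.4% of all genes tested in that class.

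Of the genes of peptide loading and its control, H2-Ob kept the same first 5 places, and H2-DMa, H2-DMb1, H2-DMb2, and H2-Oa did not. H2-DMa and H2-DMb1, the chains of the DM molecule that exchanges the invariant-chain remnant for peptide, were highest in Cd209a+ DC-like cells (H2-DMa 885 and 1062 CPM) and cDC1-like cells (H2-DMa 802 and 808 CPM). Mature DC-like cells, which followed cDC1-like and Cd209a+ DC-like cells for H2-Ab1, had only 127 and 326 CPM of H2-DMa, within reach of monocyte-like (206 to 427 CPM) and macrophage-like cells (175 to 417 CPM). H2-Ob, a chain of the DO molecule that restrains DM, was highest in cDC1-like cells (184 and 195 CPM), at 66.8 and 98.8 CPM in Cd209a+ DC-like cells, and at 2.19 to 6.87 CPM in macrophage-like cells. H2-Oa, its partner chain, was the only member with a T-like level above the macrophage-like level in all 3 saline tumors (9.46 to 20.2 against 1.89 to 3.66 CPM, each from at most 11 UMIs a tumor). Ciita, the coactivator, ran from 74.1 and 209 CPM in Cd209a+ DC-like cells and 73.5 and 164 CPM in cDC1-like cells through 40.4 to 45.2 CPM in monocyte-like cells to 6.80 to 37.6 CPM in macrophage-like cells.

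Tests between classes of the same tumors put sizes on this order. Cd209a+ DC-like cells exceeded macrophage-like cells in all 10 genes in both tumors that had enough of both classes (saline 1 and 3), and all 10 were called (adjusted p under 0.05, edgeR), where 7.71% of 8228 genes tested were called. The differences ran from 2.08 ± 0.31 (log2, SE) for H2-DMa to 4.69 ± 0.83 for H2-Ob, with 3.51 ± 0.27 for H2-Ab1 and 3.84 ± 0.54 for Ciita. Under a stricter gate too few Cd209a+ DC-like cells were left for this test. In the same tumors mature DC-like cells were below cDC1-like cells in 7 of 8 genes tested, where 27.2% of 2067 genes tested were called, with H2-Ab1 lower at -0.98 ± 0.17, H2-DMa at -1.70 ± 0.44, and H2-Ob at -2.22 ± 0.68, while H2-DMb2 differed by -0.06 ± 0.57 (edgeR adjusted p = 0.965). DESeq2 called 0 of these 7, so this contrast rests on the choice of tool. In a fit of all 8 tumors and 3 treatments together, macrophage-like cells were below monocyte-like cells in 8 of 10 genes, with 30.9% of 9478 genes tested called. The macrophage-like level was the higher in 2 of the 8 tumors for Cd74, H2-Aa, H2-Ab1, H2-Eb1, and Ciita, and in 1 for H2-DMb1 and H2-Oa. H2-Ab1 was at 6468 against 3627 CPM in saline tumor 2, and at 371 against 2173 CPM in medium R848-BPD tumor 1. The gap was -2.53 ± 0.34 for H2-DMb2 and -2.10 ± 0.45 for Ciita, but only -0.33 ± 0.15 for H2-DMa (edgeR adjusted p = 0.115), which like H2-Ob (-1.33 ± 0.59, adjusted p = 0.0920) did not pass.

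After medium R848-BPD, Ciita was nearly absent from macrophage-like cells. It had 40, 219, and 13 UMIs in saline tumors 1 to 3 (14.6, 37.6, and 6.80 CPM), 69, 25, and 23 UMIs in free R848 tumors 1 to 3 (24.3, 6.98, and 12.9 CPM), and 3 and 0 UMIs in medium R848-BPD tumors 1 and 2, although these held 4485041 and 2019304 UMIs in the class. The 0 of tumor 2 allows a level of up to 1.49 CPM. Every tumor of the other groups lay above both medium R848-BPD tumors. Pooled over tumors, the level was 0.0178 of that in saline (95% exact interval 0.00364 to 0.0525) and 0.0323 of that in free R848 (0.00657 to 0.0968). Saline tumor 2 gave 219 of the 272 saline UMIs, and without it the ratio to saline was 0.0405 (0.00809 to 0.125), while without free R848 tumor 1 the ratio to free R848 was 0.0515 (0.0103 to 0.160). The intervals cover counting error only. The fitted log2 difference was -5.36 ± 1.14 against saline (edgeR adjusted p = 0.0259) and -4.86 ± 1.18 against free R848 (edgeR adjusted p = 0.0998), a fit that depends on 3 UMIs.

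The other 8 genes tested had lower levels in both medium R848-BPD tumors as well, though H2-Aa, H2-Ab1, H2-Eb1, Cd74, and H2-DMb1 did not pass the test in either comparison. H2-Ab1 was at 1482, 6468, and 1131 CPM in saline tumors 1 to 3, at 2421, 875, and 1971 CPM in free R848 tumors 1 to 3, and at 371 and 682 CPM in medium R848-BPD tumors 1 and 2. H2-Aa was at 536, 2004, and 389 CPM in the saline tumors, at 885, 342, and 744 CPM after free R848, and at 100 and 181 CPM after medium R848-BPD. Cd74 was at 606, 2157, and 439 CPM in the saline tumors, at 858, 347, and 717 CPM after free R848, and at 153 and 233 CPM after medium R848-BPD. In each of these genes both medium R848-BPD tumors were below the lowest tumor of the other groups, and free R848 tumor 2 was the lowest of its group. H2-Eb1 had the same pattern, from 553 to 2913 CPM in saline tumors to 129 and 247 CPM. H2-DMa spread less between tumors, at 281, 417, and 175 CPM in saline, 276, 205, and 196 CPM after free R848, and 72.7 and 81.7 CPM after medium R848-BPD. H2-DMb1 was at 53.5 and 45.6 CPM after medium R848-BPD against 79.6 to 246 CPM in saline. H2-DMb2 had 7 and 4 UMIs after medium R848-BPD against 18 to 57 in saline, and H2-Ob had 3 and 1 UMIs against 6 to 40.

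Against saline, 4 of the 9 genes tested in macrophage-like cells were called lower after medium R848-BPD (edgeR, adjusted over all genes tested), with 7.57% of 10142 genes tested called: H2-DMa (-1.84 ± 0.32, adjusted p = 0.0135), H2-DMb2 (-2.83 ± 0.51, adjusted p = 0.0147), H2-Ob (-2.84 ± 0.68, adjusted p = 0.0379), and Ciita. The 5 others were also lower but did not pass: H2-Eb1 -2.79 ± 0.77 (edgeR adjusted p = 0.0604), H2-Aa -2.70 ± 0.74 (0.0576), H2-Ab1 -2.41 ± 0.78 (0.0938), Cd74 -2.37 ± 0.69 (0.0681), and H2-DMb1 -1.55 ± 0.43 (0.0589). H2-Oa had too few UMIs to be tested. All 9 genes were lower with no overlap between tumors, as were 24.1% of all genes tested, and their median difference was -2.70, where the median over all genes tested was -0.01. The count fell to 0 without either medium R848-BPD tumor and to 2 without free R848 tumor 3, and it rose to 7 without saline tumor 3. Under a stricter gate and with the replicate number as a block it was 2, DESeq2 called 7, and with no filter on low counts it was 10, H2-Oa included. With the free R848 tumors left out of the fit it was 0, and without saline tumor 2 it was 5.

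Against free R848, edgeR called 0 of the 9 genes in macrophage-like cells, with 1.15% of the 10142 genes called. All 9 were lower in both medium R848-BPD tumors than in any free R848 tumor, as were 20% of all genes tested. An unadjusted p under 0.05 was found for 8 of the 9, as for 13.6% of all genes. DESeq2 called 3, and edgeR with no filter on low counts called 9. The 1.15% belongs to the main edgeR fit, and the shares of all genes called in those other fits are not given. The differences ran from -1.44 ± 0.43 for H2-DMb1 to -2.55 ± 0.70 for H2-Ob, besides Ciita, with the lowest edgeR adjusted p of 0.0702 for H2-DMa (-1.49 ± 0.32). Without saline tumor 2, which is in neither group compared but in the same fit, 6 were called. Without saline tumor 3 the count was 1, and in a fit of the 2 groups alone 5 were called. Between free R848 and saline, edgeR and DESeq2 called 0 of the 9 genes, and in the main edgeR fit 0% of all genes were called. Of the 9 genes, 1 had an unadjusted p under 0.05, as did 13.1% of all genes tested. With no filter on low counts edgeR called 6, and the share of all genes called in that fit is not given. Free R848 and saline share no tumors with each other, but both comparisons of medium R848-BPD use the same pair of tumors.

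**Figure D2:**
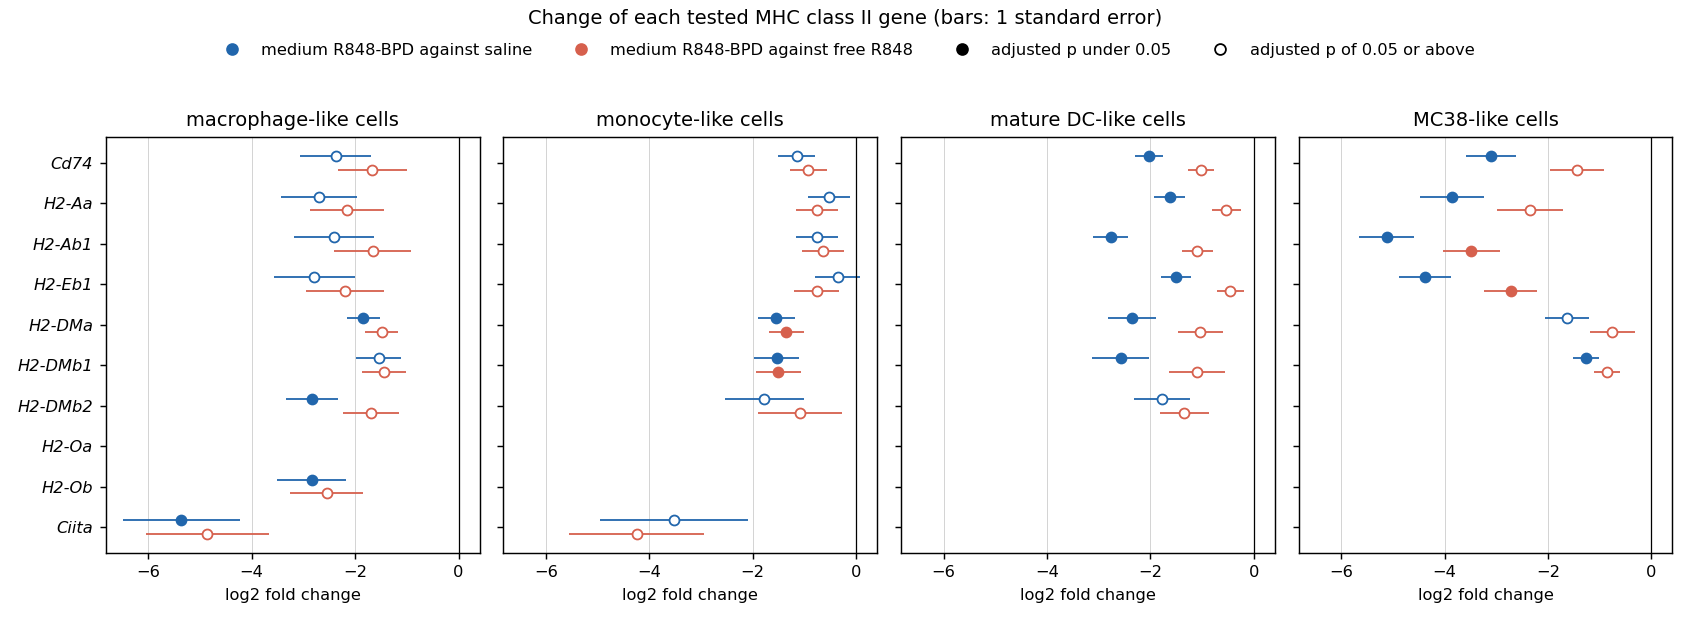
Log2 fold change of each tested gene (horizontal axis, bars 1 SE) in 4 cell classes for medium R848-BPD against saline (blue) and against free R848 (red), with filled points for an adjusted p under 0.05. All points lie left of 0, from -5.36 for Ciita in macrophage-like cells to -0.36 for H2-Eb1 in monocyte-like cells.

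The lower level appeared also as fewer cells with a transcript. After each macrophage-like cell was thinned to 1000 UMIs, H2-Ab1 was found in 26.5%, 80.8%, and 25.8% of cells in saline tumors 1 to 3, in 51.0%, 25.3%, and 40.7% after free R848, and in 16.4% and 25.1% after medium R848-BPD. Free R848 tumor 2 and saline tumors 1 and 3 thus lay just above medium R848-BPD tumor 2. Cd74 was found in 25% to 71.4% of cells in saline and in 10.96% and 15.5% after medium R848-BPD, and H2-DMa in 14.6% to 31.2% against 5.28% and 7.32%. For Ciita the thinned share was 0 of 511 and 0 of 355 cells after medium R848-BPD and 0.266% to 4.51% in saline. These zeros allow up to 0.587% and 0.845% of cells with a Ciita UMI at that depth and do not limit the share of cells that express it, since without thinning 0.587% of cells in medium R848-BPD tumor 1 held one. Without thinning, H2-Ab1 was found in 48.1% to 95.4% of macrophage-like cells in saline and in 47.9% and 44.5% after medium R848-BPD. In T-like and NK-like cells, which transcribe little of these genes, the thinned share with H2-Ab1 was 9.04% to 21.3% in saline and 9.92% and 6.67% after medium R848-BPD, at median depths of 3252 to 6993 UMIs a cell against 4037 to 6992 in macrophage-like cells. For H2-Ab1, Cd74, H2-DMa, and Ciita in medium R848-BPD against saline, the exact two-sided permutation test over tumors gave p = 0.2, the smallest value that 2 tumors against 3 allow.

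**Figure D3:**
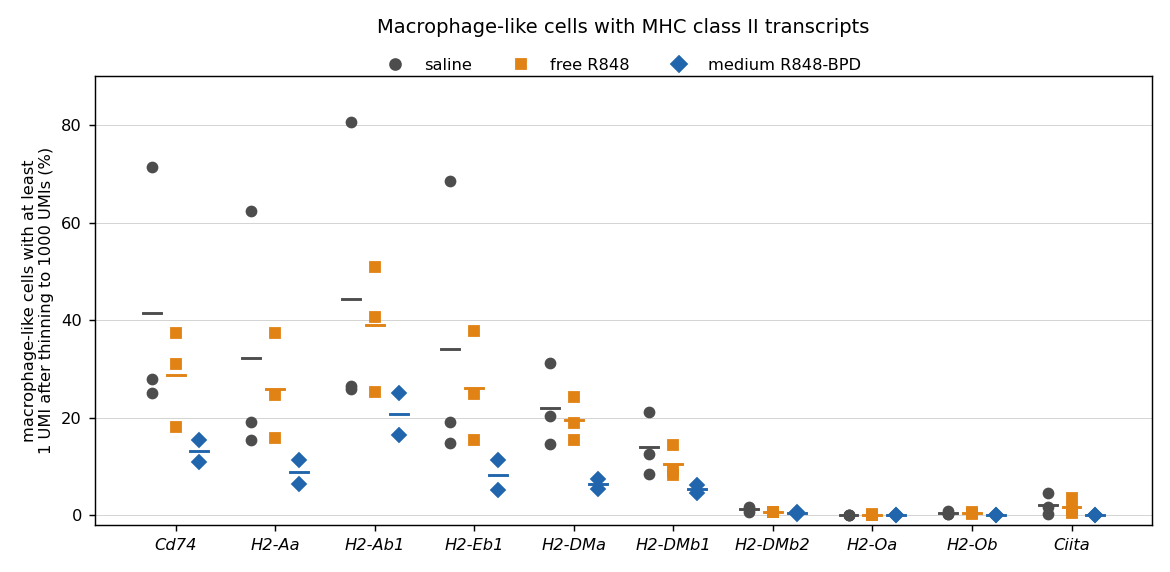
Share (percent) of macrophage-like cells in which each gene was found after thinning to 1000 UMIs per cell, 1 point per tumor and a bar at the mean of each group. For Cd74 the medium R848-BPD tumors sit at 10.96% and 15.5%, below the lowest free R848 tumor at 18.1%, and saline tumor 2 at 71.4% stands above the rest.

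Other transcripts of the macrophage-like class moved or held beside these genes. C1qb, a complement gene used for the gate, was at 3662 to 4914 CPM in saline, 3689 to 4400 CPM after free R848, and 3428 and 3832 CPM after medium R848-BPD. Saa3, an acute-phase gene, was at 8521 and 15881 CPM after medium R848-BPD against 1.46 to 109 CPM elsewhere. The 6 cDC1 markers, all in the files, summed to 272 to 500 CPM in saline, 255 to 355 CPM after free R848, and 172 and 226 CPM after medium R848-BPD, where Clec9a and Itgae were at 0. The 5 Cd209a+ DC markers in the files summed to 71.1 to 86.1, 54.6 to 72.8, and 42.4 to 150 CPM in the same order, with Cd209a at 0 after either R848 form, and the 6 mature DC markers to 10.99 to 41.2, 17.6 to 23.1, and 27.7 to 39.2 CPM, with Apol7c at 0 throughout. The 5 monocyte markers in the files, the most abundant of these lists, summed to 684 to 1818 CPM in saline, 1967 to 2195 CPM after free R848, and 1049 and 1482 CPM after medium R848-BPD, which lay below free R848 and within the saline range. The part of such markers in the result was not tested.

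Within the macrophage-like class, cells were split by Cxcl9, an interferon-gamma-induced chemokine, and Spp1, osteopontin, at 1000 UMIs a cell. Over the 4 tumors with at least 10 cells of both kinds, 5 of the 6 genes tested were higher in Cxcl9+Spp1- than in Spp1+Cxcl9- cells, where 1.62% of 6039 genes tested were called. Cd74 was higher by 1.01 ± 0.18 (log2, edgeR adjusted p = 0.000412) and H2-Ab1 by 0.76 ± 0.16 (0.00552), both in 4 of 4 tumors, and H2-DMb1 by 0.94 ± 0.21 (0.00842). H2-Aa was higher by 0.77 ± 0.20 (edgeR adjusted p = 0.0374), though in only 2 of 4 tumors, and H2-Eb1 differed by 0.67 ± 0.21 (edgeR adjusted p = 0.115). The count was 0 without saline tumor 2, which held 261 of the Cxcl9+Spp1- cells, and 0 without free R848 tumor 1, which held 63, so this contrast rests on those tumors. DESeq2 called 1. In saline tumor 2, H2-Ab1 was at 8027 CPM in Cxcl9+Spp1- and 4252 CPM in Spp1+Cxcl9- cells. In medium R848-BPD tumor 2 (14 and 33 cells) it was at 83.6 and 58.0 CPM, below every other tumor in either kind of cell with at least 10 cells.

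In monocyte-like cells the loading genes H2-DMa and H2-DMb1 were lower after medium R848-BPD, and the chain genes H2-Aa, H2-Ab1, and H2-Eb1 did not pass the test. H2-DMa was at 206, 427, and 291 CPM in saline tumors 1 to 3, 242, 290, and 257 CPM after free R848, and 125 and 74.1 CPM after medium R848-BPD, from 21 and 9 UMIs. H2-DMb1 was at 189 to 256 CPM in saline, 123 to 336 CPM after free R848, and 77.4 and 65.8 CPM after medium R848-BPD. Both medium R848-BPD tumors were below every other tumor for these 2 genes, as they were for 12.4% of all genes tested in the class. Of the 8 genes tested, 4 were lower with no overlap against free R848 and 5 against saline, where 20.8% and 17.4% of all genes were. Ciita had 0 and 1 UMIs after medium R848-BPD, against 21, 3, and 15 in saline and 9, 39, and 13 after free R848. H2-Ab1, in contrast, was at 2173 and 2691 CPM after medium R848-BPD, within the 1404 to 6505 CPM of the free R848 tumors and below the 3627 to 4446 CPM of saline.

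In these cells edgeR called 2 of 8 genes tested in each comparison with medium R848-BPD, H2-DMa and H2-DMb1, where 7.31% of 5075 genes tested were called against free R848 and 6.64% against saline. H2-DMa differed by -1.35 ± 0.34 from free R848 (edgeR adjusted p = 0.0252) and by -1.54 ± 0.35 from saline (0.0133), and H2-DMb1 by -1.51 ± 0.43 (0.0446) and -1.54 ± 0.44 (0.0457). H2-Ab1 differed by -0.64 ± 0.41 (edgeR adjusted p = 0.379) and -0.76 ± 0.41 (0.303). Between free R848 and saline, edgeR and DESeq2 called 0 of 8, 0 had an unadjusted p under 0.05, against 8.55% of the 5075 genes, and 0% of these were called. Against free R848 the count was 1 by DESeq2, with RLE scaling, in a fit of the 2 groups alone, and with the replicate number as a block, and against saline it was 1 with RLE scaling and with the block. With no filter on low counts it was 7 against free R848 and 5 against saline. Against free R848 it was 0 without medium R848-BPD tumor 2 or free R848 tumor 3, 6 without free R848 tumor 1, and 1 without medium R848-BPD tumor 1, free R848 tumor 2, saline tumor 1, or saline tumor 3. Against saline it was 0 without medium R848-BPD tumor 2, 4 without free R848 tumor 2, and 1 without any of the saline tumors, free R848 tumor 3, or medium R848-BPD tumor 1. Lyz2, lysozyme, was also lower in the class after medium R848-BPD, at 768 and 1070 CPM against 5527 to 11797 CPM elsewhere, and Saa3 was at 16678 and 14803 CPM against at most 386 CPM elsewhere. The 6 cDC1 markers summed to 199 to 383 CPM in saline, 312 to 373 CPM after free R848, and 65.8 and 89.3 CPM after medium R848-BPD, where 4 of them were at 0, and the 5 Cd209a+ DC markers to 305 to 381, 463 to 538, and 132 to 286 CPM, with Cd209a at 0 throughout. The part of these markers in the result was not tested. In a stricter gate, which left 10 cells of 1 medium R848-BPD tumor, both genes turned to the other direction without passing.

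In mature DC-like cells the chain genes were lower after medium R848-BPD. H2-Ab1 was at 8186 and 9271 CPM in saline tumors 1 and 3, at 1584, 2462, and 4399 CPM after free R848, and at 1427 and 1216 CPM after medium R848-BPD. H2-Eb1 was at 5386 and 6842 CPM in those saline tumors, at 2000, 2662, and 4478 CPM after free R848, and at 2431 and 2009 CPM after medium R848-BPD. Both R848 groups lay below these 2 saline tumors, and for H2-Eb1 they overlapped each other, while H2-Ab1 was below every other tumor of the fit after medium R848-BPD, as were 5.12% of all genes tested. Of the 7 genes tested, 7 were lower with no overlap against these saline tumors and 5 against free R848, where 19.2% and 12.6% of all genes were. Saline tumor 2 had only 5 such cells and was left out of the fit, and its H2-Ab1 (278 CPM, 8 UMIs) lay below both medium R848-BPD tumors, while its H2-Eb1 was at 3129 CPM (90 UMIs). Its Cd74, at 452 CPM, was also below both, so the separation from saline holds for the 2 tumors in the fit. Cd74 was at 2678 and 2270 CPM in saline and 638 and 620 CPM after medium R848-BPD.

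Against saline, edgeR called 6 of 7 genes tested in mature DC-like cells, all lower, with 1.6% of 3322 genes tested called. H2-Ab1 differed by -2.77 ± 0.34 (edgeR adjusted p = 0.000685), H2-DMb1 by -2.58 ± 0.55 (0.0215), H2-DMa by -2.36 ± 0.46 (0.0133), Cd74 by -2.03 ± 0.28 (0.00117), H2-Aa by -1.63 ± 0.31 (0.0115), and H2-Eb1 by -1.51 ± 0.29 (0.0133). The count was 0 under a stricter gate, 2 without medium R848-BPD tumor 2, and 3 without saline tumor 1. Against free R848, edgeR and DESeq2 called 0 of 7 with 4 at an unadjusted p under 0.05, where 0.482% of all genes were called and 9% had such an unadjusted p. Between free R848 and saline, edgeR called 0 of 7 with 6 at an unadjusted p under 0.05, and DESeq2 called 4. Of the 3322 genes, edgeR called 0%, and 8.1% had such an unadjusted p. H2-Ab1 was closest there (-1.68 ± 0.28, edgeR adjusted p = 0.0608), and the count was 4 without free R848 tumor 3 and 1 without either medium R848-BPD tumor. Against free R848 it was 2 without free R848 tumor 1. With no filter on low counts it was 4 between free R848 and saline and 2 against free R848. The 6 macrophage markers in the files summed to 79.4 to 372 CPM in saline, 137 to 1080 CPM after free R848, and 423 to 604 CPM after medium R848-BPD in this class, and the 6 cDC1 markers to 47.6 to 83.4, 31.2 to 45.8, and 17.9 to 26.8 CPM. The 5 monocyte markers in the files summed to 365 to 728, 763 to 1126, and 711 to 1037 CPM, the 5 Cd209a+ DC markers to 349 to 630, 353 to 479, and 286 to 426 CPM, and the part of these lists in the result was not tested.

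The balance of the beta chains is given by class and treatment. H2-Ab1 gave 1.35 and 1.52 UMIs per H2-Eb1 UMI in mature DC-like cells of saline tumors, 0.792 to 0.982 after free R848, and 0.587 and 0.605 after medium R848-BPD. These tumors lay apart by group, but saline tumor 2, left out with 5 cells, had a ratio of 0.0889, below both medium R848-BPD tumors. As a percent of both genes' UMIs, H2-Ab1 was 37.0% (95% exact interval 34.6% to 39.5%) and 37.7% (33.6% to 42.0%) in the medium R848-BPD tumors. In macrophage-like cells the ratio was 1.90 to 2.01 after free R848, 2.05 to 2.22 in saline, and 2.77 and 2.89 after medium R848-BPD, the other direction from mature DC-like cells. In monocyte-like cells it was 2.01 to 2.58 in saline and 1.48 to 1.68 in the 5 R848-treated tumors. Over tumors, exact two-sided permutation tests of the log2 ratio gave p = 0.2 for medium R848-BPD against free R848 in mature DC-like and in macrophage-like cells and p = 0.1 for free R848 against saline in monocyte-like cells, the smallest values these numbers of tumors allow.

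H2-DMb2 and H2-DMb1, neighbouring and near-identical genes whose reads the authors' counting could split wrongly, differed in balance between classes. H2-DMb2 gave 2.64% to 13.8% of the UMIs of both genes in macrophage-like cells (8 tumors, median 4.53%), 5.26% to 28.3% in monocyte-like cells (median 18.8%), 24.4% and 35.2% in Cd209a+ DC-like cells, and 28.6% to 72.2% in mature DC-like cells (7 tumors, median 57.1%). The macrophage-like and mature DC-like ranges did not overlap. Within a class, the ranges of medium R848-BPD and free R848 tumors overlapped in macrophage-like and mature DC-like cells.

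**Figure D4:**
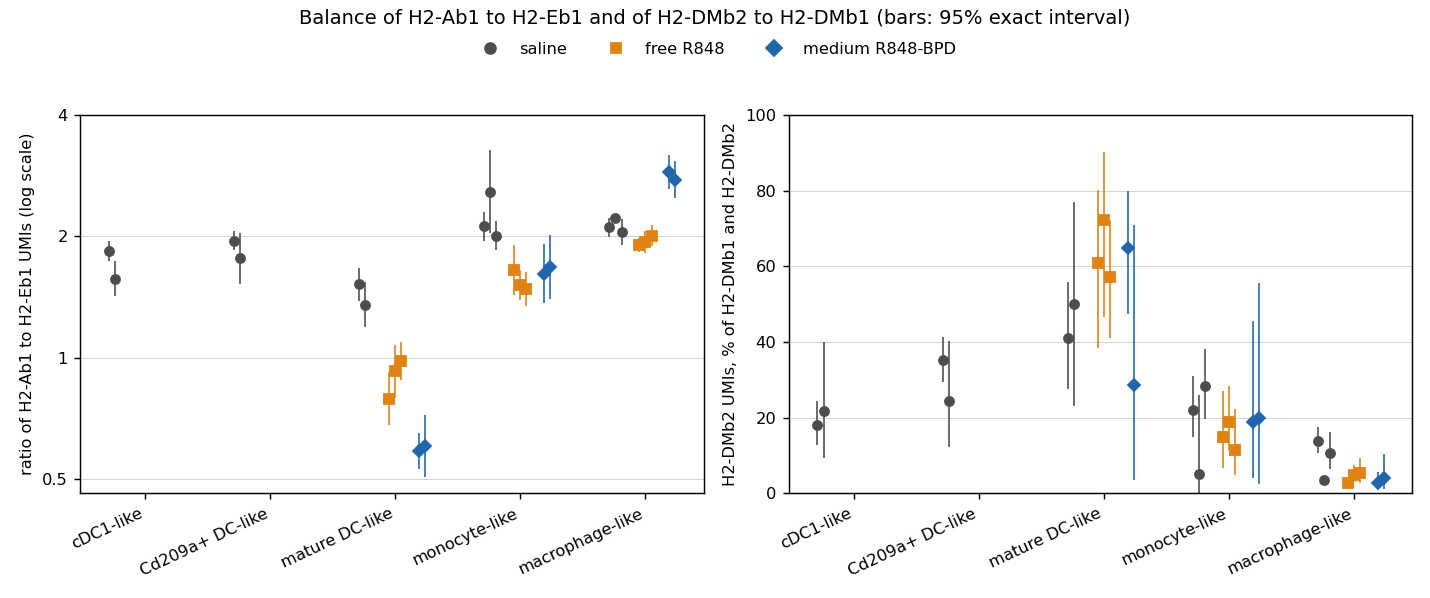
Left, ratio of H2-Ab1 to H2-Eb1 UMIs on a log scale; right, H2-DMb2 as a percent of the UMIs of H2-DMb1 and H2-DMb2; 1 point for each tumor of 10 or more such cells and bars for the 95% exact counting interval. In mature DC-like cells the left ratio falls from 1.35 and 1.52 in saline to 0.587 and 0.605 after medium R848-BPD.

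The cDC1-like and Cd209a+ DC-like cells were too few after R848 for a test and are given as values from all cells found. In cDC1-like cells H2-Ab1 was at 18985, 20021, and 18694 CPM in saline tumors 1 to 3 (30, 3, and 11 cells), at 26309, 18689, and 16410 CPM after free R848 (1, 7, and 4 cells), and at 22867 and 26120 CPM after medium R848-BPD (5 cells and 1 cell). Both medium R848-BPD tumors lay above the 3 saline tumors, as they did for 32.1% of the 140 genes with at least 30 UMIs in each group (31.5% of 124 such genes against free R848), and 7 Ciita UMIs were found in tumor 1. In Cd209a+ DC-like cells H2-Ab1 was at 16958, 25541, and 13068 CPM in saline (56, 5, and 16 cells), at 2723, 16978, and 24450 CPM after free R848 (5, 6, and 8 cells), and at 5040 and 4178 CPM after medium R848-BPD (5 cells each), with 0 Ciita UMIs in both. Those 10 cells also held Saa3 at 28234 and 17311 CPM and C1qb at 1400 and 1259 CPM, against at most 178 CPM of C1qb in the saline tumors, and the part of this in their H2-Ab1 level was not tested.

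MC38-like cells had low levels that were lower again after medium R848-BPD. H2-Ab1 was at 118, 321, and 129 CPM in saline tumors 1 to 3 (282, 1159, and 105 UMIs), at 52.1, 52.2, and 89.9 CPM after free R848, and at 5.93 and 5.26 CPM after medium R848-BPD (14 and 27 UMIs). The 3 groups did not overlap for H2-Ab1, and 7.37% of all genes tested were below every other tumor in both medium R848-BPD tumors. Of the 6 genes tested, 6 were lower with no overlap against saline and 5 against free R848, where 14.1% and 16.7% of all genes were. Cd74 was at 25.8 to 72.1 CPM in saline, 9.99 to 25.5 CPM after free R848, and 3.81 and 6.43 CPM after medium R848-BPD. H2-DMb1 had the smallest difference from saline of the 6 genes tested, from 27.3 to 29.4 CPM in saline and 18.5 to 23.1 CPM after free R848 to 15.7 and 8.77 CPM. Ciita had 21 UMIs in all saline MC38-like cells, 7 after free R848, and 1 after medium R848-BPD.

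Against saline, edgeR called 5 of 6 genes tested in MC38-like cells, all lower, with 1.59% of 10735 genes tested called: H2-Ab1 (-5.12 ± 0.53, adjusted p = 0.00074), H2-Eb1 (-4.38 ± 0.50, 0.00152), H2-Aa (-3.86 ± 0.61, 0.0103), Cd74 (-3.10 ± 0.49, 0.0103), and H2-DMb1 (-1.26 ± 0.26, 0.0327). Against free R848 it called 2 of 6, H2-Ab1 (-3.48 ± 0.55, edgeR adjusted p = 0.0171) and H2-Eb1 (-2.72 ± 0.52, 0.0379), with 0.661% of genes called. Between free R848 and saline, edgeR and DESeq2 called 0 of 6, though 5 had an unadjusted p under 0.05 and H2-Ab1 differed by -1.64 ± 0.35 (edgeR adjusted p = 0.313), where 0% of the 10735 genes were called and 7.42% had such an unadjusted p. With no filter on low counts edgeR called 4 in this comparison, 8 against saline, and 4 against free R848. The count against saline was 3 without medium R848-BPD tumor 2. Against free R848 it was 0 under a stricter gate and without medium R848-BPD tumor 2, free R848 tumor 2, or free R848 tumor 3, and 1 without saline tumor 3 or free R848 tumor 1.

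Transcripts of other cells were present in this class, and some were lower after medium R848-BPD. Lyz2 was at 127 to 174 CPM in saline, 36.6 to 132 CPM after free R848, and 8.90 and 13.1 CPM after medium R848-BPD, while Saa3 was at 562 and 418 CPM there against at most 11.5 CPM elsewhere. The 6 macrophage markers in the files summed to 99.4 to 450 CPM, 104 to 162 CPM, and 73.4 and 98.3 CPM, with none at 0, and the Cd209a+ DC markers to 4.91 to 11.6, 2.55 to 3.70, and 0.847 and 1.36 CPM. The 5 monocyte markers in the files (88.4 to 191 CPM in saline, 63.1 to 148 CPM after free R848, 70.5 and 158 CPM after medium R848-BPD) and the 6 mature DC markers (394 to 452, 404 to 523, and 400 and 441 CPM) overlapped between groups, and the 6 cDC1 markers summed to 39.6 to 63.8, 41.1 to 47.8, and 35.8 and 38.1 CPM, with Clec9a at 0 throughout. As a percent of the macrophage-like level of the same tumor, C1qb was 0.335% to 1.246% in MC38-like cells over all 8 tumors. Its values in medium R848-BPD tumors 1 and 2, 0.376% and 0.335%, were the lowest. Lyz2 was 1.52% to 4.53% in saline, 0.970% to 4.30% after free R848, and 0.259% and 0.360% after medium R848-BPD. H2-Ab1 was 4.97% to 11.4% in saline, 2.15% to 5.96% after free R848, and 0.771% and 1.598% after medium R848-BPD. H2-DMb1 was 11.8% to 35.5% in all. Against the T-like and NK-like cells of the same tumor, MC38-like cells were lower in 6 of 7 genes tested, Cd74 by -1.57 ± 0.22 and H2-Ab1 by -1.65 ± 0.40, and higher only in H2-DMb1 (1.00 ± 0.25, edgeR adjusted p = 0.00159, in 7 of 8 tumors), with 77.1% of 10999 genes tested called between these classes. H2-Ab1 in T-like and NK-like cells was 166 and 209 CPM after medium R848-BPD and 137 to 526 CPM in saline. The part of free RNA from other cells in the MC38-like levels was not tested.

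**Figure D5:**
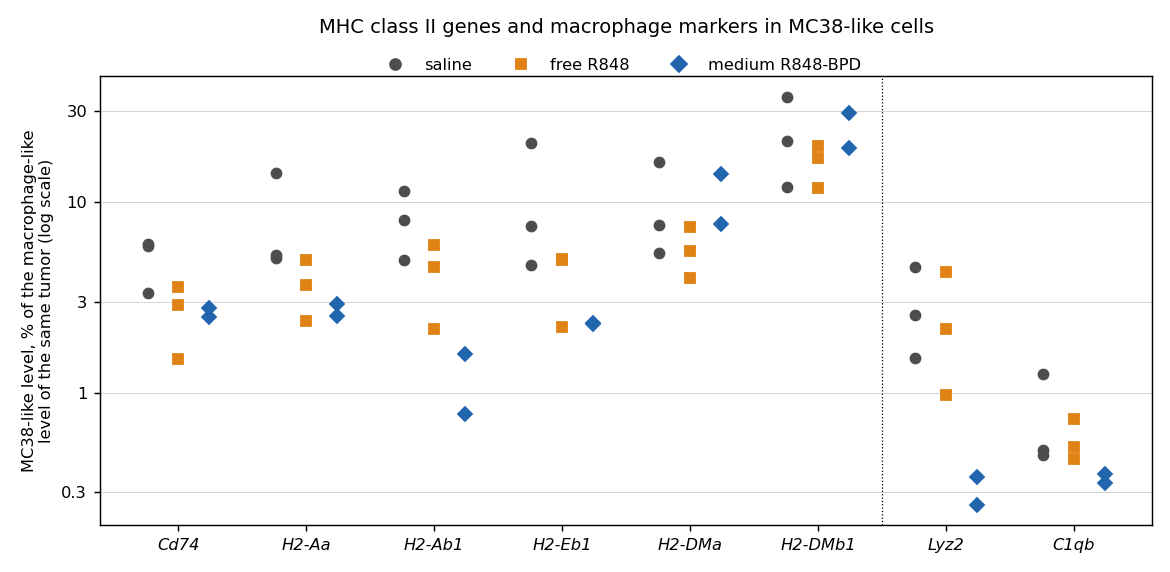
Level in MC38-like cells as a percent of the macrophage-like level of the same tumor (log scale) for 6 MHC class II genes and, right of the dotted line, Lyz2 and C1qb, 1 point per tumor. H2-Ab1 falls from 4.97% to 11.4% in saline to 0.771% and 1.598% after medium R848-BPD, and H2-DMb1 stays between 11.8% and 35.5%. Lyz2 is at 1.52% to 4.53% in saline, 0.970% to 4.30% after free R848, and 0.259% and 0.360% after medium R848-BPD. C1qb is at 0.470% to 1.246% in saline, 0.446% to 0.725% after free R848, and 0.376% and 0.335% after medium R848-BPD.

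The surrounding pathway was read from 36 genes in 6 lists, of which 34 were tested in macrophage-like cells. After medium R848-BPD against saline, 2 of the 34 were called higher and 2 lower, where 7.57% of all genes tested were called, and against free R848 0 higher and 2 lower, where 1.15% were called. Cd83, which keeps class II molecules at the surface by opposing MARCH1, was at 562 to 821 CPM in saline, 445 to 548 CPM after free R848, and 218 and 173 CPM after medium R848-BPD, lower by -1.80 ± 0.21 against saline (edgeR adjusted p = 0.00281) and by -1.28 ± 0.21 against free R848 (0.0280). March1, the ubiquitin ligase that sends class II molecules to degradation, was at 94.1 to 204 CPM in saline and 307 and 289 CPM after medium R848-BPD, higher by 1.24 ± 0.30 (edgeR adjusted p = 0.0409). Cd86, a ligand of CD28 on T cells, was at 183 to 220 CPM in saline, 142 to 166 CPM after free R848, and 72.7 and 61.9 CPM after medium R848-BPD, lower by -1.48 ± 0.15 against saline (edgeR adjusted p = 0.00155). Spi1, which encodes the myeloid factor PU.1, was higher by 0.50 ± 0.13 (edgeR adjusted p = 0.0479) and was the only one of 12 transcription factor genes of the class II promoters called. Of 6 interferon-gamma signal genes and 7 antigen protease and invariant chain genes tested, 0 were called in macrophage-like cells in any of the 3 comparisons by edgeR. At an unadjusted p under 0.05 stood 1 and 4 of them against saline after medium R848-BPD, where 25.1% of all genes did. The counts were 1 and 1 against free R848 (13.6% of all genes) and 0 and 1 between free R848 and saline (13.1%).

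In monocyte-like cells 27 of the 36 pathway genes were tested, and 4 were called higher and 3 lower after medium R848-BPD against saline, where 6.64% of all genes tested were called. Against free R848, 2 were called higher and 4 lower, where 7.31% were called. Cd86 was at 303 to 384 CPM in saline, 224 to 305 CPM after free R848, and 59.5 and 57.6 CPM after medium R848-BPD, lower by -2.53 ± 0.33 against saline (edgeR adjusted p = 0.000263), beside Cd83 (-1.93 ± 0.34) and Cd40, the receptor for CD40 ligand (-1.56 ± 0.42). Among the 4 called higher, March1 was higher by 1.75 ± 0.37 (edgeR adjusted p = 0.00783). The lysosomal protease genes Ctsl (1.89 ± 0.36), which encodes cathepsin L, and Ctsd (1.11 ± 0.30), cathepsin D, were among them too. Against free R848, Ifi30, the lysosomal thiol reductase, was also lower (-1.40 ± 0.27) and Lgmn, legumain, higher (0.93 ± 0.23). Lgmn was at 762 and 716 CPM after medium R848-BPD, against 340 to 422 CPM after free R848 and 313 to 412 CPM in saline. In MC38-like cells 29 were tested, with 0 called against free R848 (9 at an unadjusted p under 0.05, as 14.6% of all genes). Against saline 3 were called, where 1.59% of all genes tested were: Cd86 (-2.51 ± 0.46), Cd83 (-2.44 ± 0.42), and Ctsl (0.63 ± 0.10). Cd86 had 4 and 10 UMIs in these cells after medium R848-BPD against 9 to 42 in saline, and Cd83 had 3 and 35 against 19 to 105. The part of free RNA from other cells in these levels was not tested. In mature DC-like cells 21 were tested and edgeR called 0 in each of the 3 comparisons, with 2 at an unadjusted p under 0.05 against saline (13.3% of all genes), 3 against free R848 (9%), and 1 between free R848 and saline (8.1%). Between free R848 and saline, 0 pathway genes were called in the other 3 classes, with 6 of 34, 2 of 27, and 4 of 29 at an unadjusted p under 0.05 in macrophage-like, monocyte-like, and MC38-like cells, where 13.1%, 8.55%, and 7.42% of all genes were.

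Over 82 tumor-by-class sums of at least 10 cells in 14 classes, the members with levels most like H2-Ab1 were H2-Aa (Pearson r = 0.964 of log2(CPM + 1)), Cd74 (0.961), and H2-Eb1 (0.956), and the least alike were H2-Ob (0.689) and H2-Oa (0.483), the scarcest. Ciita had r = 0.821. Among 7072 other genes with a mean of at least 20 CPM, the 5 most alike were Gcnt2 (r = 0.870), Cd83 (0.866), Plbd1 (0.865), Gm6377 (0.858), and Ly86 (0.857). The sums of 1 class share markers and those of 1 tumor share a library, so these values describe the pattern and were not tested.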

How the data were processed

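Single-cell transcriptomes of 8 tumors were analysed. The authors deposited 1 table of raw UMI counts per tumor, genes by cell barcodes, aligned to mm10; the submitters' processing notes name bcl2fastq, and the aligner and annotation are not given in the sources used here. With the study's limits per barcode, a barcode was kept when its gene number lay between 400 and 10000, its UMI total was below 50000, and mitochondrial genes gave no more than 15% of it. The study also removed a cluster of poor-quality cells and genes seen in few cells, and these steps were not repeated. Scrublet (scanpy 1.11.5) marked 80 cells (0.809%) as doublets, which were kept and left out in an alternative. Cells were assigned by marker genes, for example macrophage-like with at least 4 marker genes and 32 marker UMIs per 10000; cells passing more than 1 gate (571) or none (1155) and 389 cells between the monocyte and macrophage gates were set aside. Counts were summed per tumor and class (at least 10 cells) and tested with edgeR 4.0.16 (quasi-likelihood, TMM, all 3 groups in 1 fit, Benjamini-Hochberg over all genes tested); DESeq2 1.42.0 was an alternative. Class pairs were tested with the tumor as a block. On simulated 4-fold changes in 200 genes, the test recovered 87.5% in macrophage-like, 73.5% in monocyte-like, 83.5% in mature DC-like and 94.5% in MC38-like cells. It made 6, 9, 11, and 13 false calls in these classes. The rates describe those 200 genes, and H2-Eb1, H2-Aa, H2-Ab1, and Cd74 differed by more than 4-fold from saline in macrophage-like cells without passing. Shares of cells were compared after thinning to 1000 UMIs. Depth was 5867590 to 12422614 UMIs per tumor, and intervals cover counting error only.

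Genes were named in full when they were members, and pathway genes when they passed the test. The members and gene lists were chosen with earlier results of these data known, and gate thresholds were set after marker values, but not member values, were seen. The replicates are separate tumors, and the labels give no batch. Alternatives were DESeq2, RLE scaling, no filter on low counts, a fit of only the 2 groups compared, the replicate block, a stricter gate, doublets left out, and each tumor left out in turn. Shares of all genes called are those of the main edgeR fit, and those of the alternatives are not given.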

Additional observations from a re-analysis of the deposited data

Results flagged for a closer look

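In cDC1-like cells, H2-Aa, H2-Eb1, and H2-DMa were higher after medium R848-BPD than in either other group, and H2-Ab1 than in saline. They were lower in other classes, with every tumor of the group on its side. In cDC1-like cells H2-Ab1 overlapped free R848, and Cd74 overlapped both other groups. The difference between classes was not tested. Of the genes with at least 30 UMIs in each group of cDC1-like cells, 31.5% were likewise higher with no overlap against free R848 and 32.1% against saline. The class held 6 cells after medium R848-BPD, 1 of them in tumor 2, 12 after free R848, and 44 in saline. Against free R848, the log2 ratio of mean CPM was 1.00 for H2-Aa and 0.69 for H2-Eb1, both lower in macrophage-like and MC38-like cells, and 0.88 for H2-DMa, lower in monocyte-like and macrophage-like cells. Against saline it was 0.40 for H2-Aa, 0.35 for H2-Ab1, 0.46 for H2-Eb1, and 0.77 for H2-DMa, all lower in macrophage-like and MC38-like cells.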

How the results depend on the processing

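Counts of genes called are given as macrophage-like, monocyte-like, mature DC-like, MC38-like where they left 1.5 times the reported count; the cause was not tested. For medium R848-BPD against saline, DESeq2 gave 7 in macrophage-like cells, no filter on low counts 10, 5 in monocyte-like and 8 in MC38-like cells, a fit of the 2 groups alone 0 in macrophage-like cells, RLE scaling 1 in monocyte-like cells, and a stricter gate 2 in macrophage-like and 0 in mature DC-like cells. Against free R848, DESeq2 gave 3 and 1 in macrophage-like and monocyte-like cells, no filter 9, 7, 2, and 4, the 2 groups alone 5 and 1, RLE scaling 1 in monocyte-like cells, and a stricter gate 0 in MC38-like cells. For free R848 against saline, no filter gave 6, 4, and 4 in macrophage-like, mature DC-like, and MC38-like cells, and DESeq2 4 in mature DC-like cells. Between classes, DESeq2 gave 0 for mature DC-like against cDC1-like cells and 1 for the Cxcl9 and Spp1 split. With the replicate number as a block, the count against saline was 2 in macrophage-like and 1 in monocyte-like cells. It was 1 in monocyte-like cells against free R848, and 1 in mature DC-like cells for free R848 against saline. Deviations of same-numbered tumors were correlated with r from -0.24 to 0.13. These deviations were taken within groups of 2 or 3 tumors, where they must cancel, so they cannot show whether the number pairs tumors. Under the stricter gate, H2-DMa and H2-DMb1 in monocyte-like cells turned to 0.82 and 0.89 against free R848 and 0.96 and 0.98 against saline, with 1 medium R848-BPD tumor. Leaving out 1 tumor gave, against saline, 0 to 7, 0 to 4, 2 to 6, and 3 to 5 in the 4 classes, against free R848, 0 to 6, 0 to 6, 0 to 2, and 0 to 2, for free R848 against saline, 0 to 4 in mature DC-like cells and 0 in the others, and 0 to 6 for the Cxcl9 and Spp1 split. For the pooled Ciita level in macrophage-like cells, leaving out 1 tumor, an alternative chosen after seeing the data, gave ratios of 0.0152 to 0.0405 to saline and 0.0232 to 0.0515 to free R848. Leaving out doublets changed none of these counts. Classes of few cells limit the rest: the smallest fitted sums held 10 cells.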
